A study of Mus musculus with 12 samples.

Results

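The 36 genes described here mark the cells of brain blood vessels, and they were chosen as a list of symbols by what they mark. They are 28 endothelial genes, 6 mural genes (Pdgfrb, Rgs5, Acta2, Myh11, Abcc9 and Vtn) and 2 further mural genes, Tagln and Notch3. All 36 were found among the 32494 genes of the expression table. Messenger RNA was sequenced from the hypothalamus of 12 male mice, per the labels, to ask what loss of Smc3 from neurons of the adult brain does. The SMC3 protein is part of cohesin, a ring-shaped complex that shapes chromosome loops. Every mouse carried floxed Smc3 and was given tamoxifen, and sampling was 5 weeks after tamoxifen. The growth protocol describes mice 8 weeks old, at a step it does not name. Mice without the Camk2a-cre/ERT2 transgene (Cre-) are the group labelled WT (n = 7), and mice with it (Cre+) are the group labelled cKO (n = 5). The titles of both groups also hold the word control. The Camk2a promoter drives this tamoxifen-activated recombinase in forebrain excitatory neurons, so vessel cells are not its intended target. The labels do not say whether any mice shared a litter, and p-values measure only the spread between these samples.

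Endothelial cells line every vessel of the brain, and their tight junctions, pumps and carriers form the blood-brain barrier. Mural cells sit on the outer side of that lining. Pericytes cover capillaries and share a basement membrane with the endothelium, whereas smooth muscle cells wrap arteries and arterioles and contract through actin and myosin. In whole tissue, fewer cells of a type and less RNA per cell cannot be told apart.

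The targeted gene went against the labels. Smc3 averaged 81.6 ± 3.14 CPM (a gene's reads as a share of its library, scaled by the authors; SD, n = 7) in the WT group and 131 ± 10.3 CPM (n = 5) in the cKO group, so it was higher where it should be lost (log2 fold change 0.67, SE 0.05, limma adjusted p = 3.06e-05). Directions below are given between libraries by label, and an exchange of the labels, which was not tested, would turn them all. Apart from WT 1, with 68.7 M reads, the libraries held 17.1 to 24.01 M. The 8 hypothalamus markers summed to 69.9 to 600.2 CPM in the WT group and 155 to 697 CPM in the cKO group, with log2 fold changes above 0 for 6 of 8 (median 0.59) and 1, Sim1, higher by the test (0.56). Avp and Oxt, the vasopressin and oxytocin genes, reached no more than 6.46 and 2.33 CPM in WT 4, WT 5, cKO 12 and cKO 13, against at least 29.0 and 69.5 CPM in the other 8 libraries. Summed oligodendrocyte markers were 8677 to 9941 CPM in those 4 libraries and 4093 to 6920 CPM in the other 8. Thalamus markers summed to 488 to 1027 CPM in the WT group and 324 to 573 CPM in the cKO group, with 2 of 6 (Prkcd and Ntng1) lower by the test. Calls of the genes named below were repeated without the 4 libraries and with the thalamus markers as a covariate, and values are given where these changed a call.

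Between the groups labelled WT and cKO, 1 of the 35 vessel genes that could be tested passed, and log2 fold changes ran from -0.26 to 0.34. That gene was Mfsd2a, the lipid carrier of the blood-brain barrier, which was 1.25 times higher in the libraries labelled cKO. The test was limma on log2(CPM + 1) over the 15359 genes whose mean reached 1 CPM, with Benjamini-Hochberg adjustment and a threshold of 0.05. It called 14.1% of all tested genes, 6.54% as higher and 7.6% as lower in the libraries labelled cKO, so the share among vessel genes was below the background. At an unadjusted p under 0.05 there were 6 members (Ly6a, Slc2a1, Mfsd2a, Sox17, Sox18 and Notch3), beside 31.1% of all tested genes. None of the 35 had groups whose ranges did not overlap, which 6.73% of tested genes had (3.52% with the libraries labelled cKO higher, 3.2% with them lower). In the authors' deposited table, Mfsd2a was likewise the one member with a false discovery rate under 0.05 (log2 fold change 0.32, rate 0.0300), beside 4.94% of its 32494 genes.

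**Figure D1:**
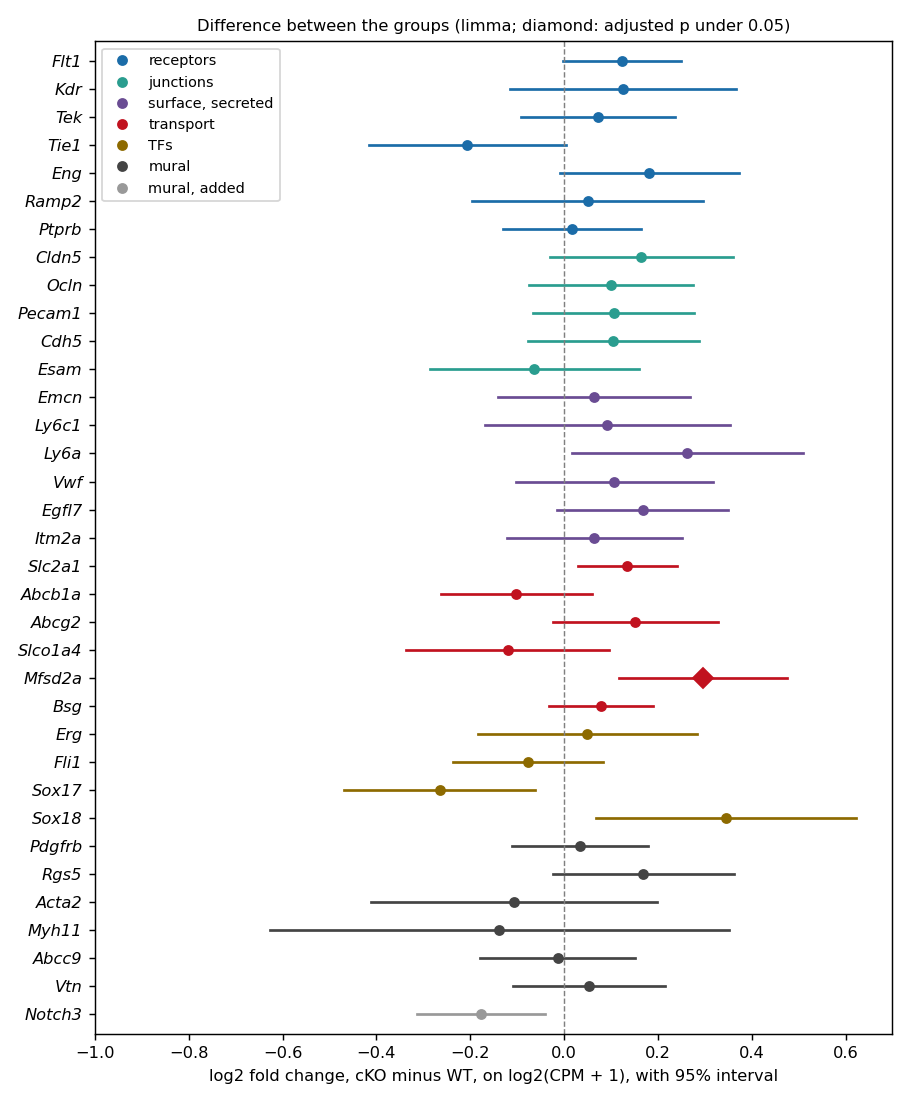
Log2 fold change (libraries labelled cKO minus WT, on log2(CPM + 1)) of the 35 tested vessel genes, with 95% intervals from limma and colours by role; the diamond marks the gene past the threshold. Mfsd2a at 0.30 is the one diamond, and the widest interval is that of Myh11, from -0.63 to 0.35.

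Promoter sequences are printed for Mfsd2a, the member that passed the test, and for the 3 mural members whose promoter holds the TEAD motif, to show where the letters lie. They were taken from RefSeq (GRCm38.p6), run from 250 bases before to 50 bases after an annotated start, and are read 5′ to 3′ on the gene's strand. Capitals mark the ETS motif CAGGAA in Mfsd2a, where it occurs as its reverse complement, and the TEAD motif GGAATG in the others. Mfsd2a lies at chr4:122961139-122961438 (minus strand), Acta2 at chr19:34255324-34255623 (minus), Abcc9 at chr6:142702225-142702524 (minus) and Vtn at chr11:78498870-78499169 (plus).
Mfsd2a: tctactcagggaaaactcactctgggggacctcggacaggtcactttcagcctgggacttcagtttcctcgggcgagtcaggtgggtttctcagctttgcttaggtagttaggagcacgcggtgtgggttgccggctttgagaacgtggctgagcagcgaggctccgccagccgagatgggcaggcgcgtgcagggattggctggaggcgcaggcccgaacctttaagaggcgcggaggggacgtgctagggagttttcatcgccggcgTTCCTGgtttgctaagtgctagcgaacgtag
Acta2: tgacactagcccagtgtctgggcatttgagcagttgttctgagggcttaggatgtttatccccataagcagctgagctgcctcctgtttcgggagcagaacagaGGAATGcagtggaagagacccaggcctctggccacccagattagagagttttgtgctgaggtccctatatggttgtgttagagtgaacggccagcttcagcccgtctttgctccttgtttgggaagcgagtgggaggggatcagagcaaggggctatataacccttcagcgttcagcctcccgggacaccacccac
Abcc9: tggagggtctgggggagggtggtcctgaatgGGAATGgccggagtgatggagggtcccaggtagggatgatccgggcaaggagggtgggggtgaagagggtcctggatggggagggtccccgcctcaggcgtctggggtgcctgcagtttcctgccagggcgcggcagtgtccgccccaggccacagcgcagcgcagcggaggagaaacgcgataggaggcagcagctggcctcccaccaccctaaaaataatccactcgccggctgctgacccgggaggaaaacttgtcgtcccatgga
Vtn: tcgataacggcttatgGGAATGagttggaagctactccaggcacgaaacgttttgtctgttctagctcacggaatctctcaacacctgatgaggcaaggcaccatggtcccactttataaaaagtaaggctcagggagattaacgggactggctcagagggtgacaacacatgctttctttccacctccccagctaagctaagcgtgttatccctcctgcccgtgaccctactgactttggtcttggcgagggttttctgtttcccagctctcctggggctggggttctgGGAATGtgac

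The first base of TTCCTG in Mfsd2a was at position 20 after the start. GGAATG began at -146 in Acta2, at -219 in Abcc9, and at both -234 and 41 in Vtn. RefSeq windows were found for 22 of the 36 members, 30 windows in all, and motifs were searched on both strands. CAGGAA, bound by ETS factors such as Erg and Fli1, was in 11 of the 25 endothelial windows (44%) and in 30.6% of all 32851 windows of this length. Some genes have several windows: the 25 belong to 17 genes, of which 9 held CAGGAA. This motif was also in 2 of the 4 windows of the mural genes (50%). GGAATG was in 3 of the 4 windows of the 6 mural genes and in 14.7% of all windows. Among the 25 endothelial windows it was in 4 (16%), which belong to 3 genes. The second ETS form CCGGAA was in 2 endothelial windows (8%, beside 14.9% of all windows). The SOX motif AACAAT was in 4 (16%, beside 10.7% of all windows) and the RBPJ motif GTGGGAA in 2 (8%, beside 6.38%). An exact CArG box (CC, 6 letters A or T, GG), the motif of the smooth muscle regulator SRF, was in no member's window and in 1.63% of all windows. Forms with a base off this pattern were not counted, so nothing is read from its absence in Acta2. CAGGAA and GGAATG can overlap, and a match is a description of letters, not a binding site.

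Of the 6 carriers and pumps of the barrier 1 passed, beside the 14.1% of all tested genes called. Mfsd2a carries lysophosphatidylcholine with docosahexaenoic acid into the brain and restrains vesicle traffic across the endothelium. Its lowest, median and highest values in the WT group were 17.7, 19.4 and 21.6 CPM, and the libraries labelled cKO had 23.2 (cKO 8), 24.3 (cKO 9), 21.2 (cKO 12), 31.0 (cKO 13) and 22.1 CPM (cKO 14). The groups overlapped only through cKO 12, which was below the highest WT library, WT 5, and cKO 13 stood above the rest. The group levels were 19.5 ± 1.46 CPM (SD, n = 7) and 24.3 ± 3.90 CPM (SD, n = 5), from 373 to 1276 reads a library. Mfsd2a rose by 0.30 on the log2 scale (SE 0.08, 95% interval 0.12 to 0.48, limma adjusted p = 0.0328). This call was lost without WT 1 (adjusted p = 0.0660), WT 6 (0.0573), WT 11 (0.0606), cKO 9 (0.0640) or cKO 13 (0.0506, log2 fold change 0.21), and with thalamus markers as a covariate (0.0821, log2 fold change 0.34).

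Slc2a1, the glucose transporter of the barrier, had a lowest, median and highest value of 118, 124 and 145 CPM in the WT group. Its values were 143, 141, 134, 136 and 133 CPM in cKO 8, 9, 12, 13 and 14. Every library labelled cKO was above 6 of the 7 WT libraries, and WT 7 was above them all. The difference of 0.14 (SE 0.05) did not pass in limma (adjusted p = 0.0797), and it passed without WT 7 (0.17, limma adjusted p = 0.0129) and with arrayWeights (0.17, 0.00568). Here and below, calls with arrayWeights stand beside 33.4% of all tested genes called in that setting. Bsg, a chaperone of monocarboxylate carriers that many other cell types also make, was at 469 ± 24.01 and 496 ± 36.5 CPM (limma log2 fold change 0.08, adjusted p = 0.326). Abcg2, a drug pump, was at 14.5 ± 0.902 and 16.3 ± 2.51 CPM, with 3 of the 5 cKO libraries above every WT library (limma log2 fold change 0.15, adjusted p = 0.225).

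The remaining pump and carrier had values below 0 on the log2 scale. Abcb1a, which encodes P-glycoprotein, was at 38.0 ± 3.43 CPM in the WT group and 35.4 ± 3.59 in the cKO group (limma log2 fold change -0.10, adjusted p = 0.379). Its near copy Abcb1b was at 2.81 to 4.63 CPM, and whether reads shared between them bear on Abcb1a was not tested. Slco1a4, an organic anion carrier, was at 48.6, 54.2 and 65.2 CPM (lowest, median, highest) in the WT group. In cKO 8, 9, 12, 13 and 14 Slco1a4 had 42.9, 47.3, 50.1, 69.4 and 46.2 CPM. It was below the WT median in every cKO library but cKO 13, the highest of all 12. Over all mice the limma log2 fold change of Slco1a4 was -0.12 (adjusted p = 0.447), and it passed without cKO 13 at -0.23 (adjusted p = 0.0477) and without the 4 libraries low in Avp and Oxt at -0.21 (0.0376).

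Of the 4 endothelial transcription factors none passed, in limma with equal library weights over all 12 mice or in edgeR, and Sox17 and Sox18 had the lowest and highest log2 fold change of the tested members. Sox17 and Sox18 are sister SOX factors of endothelial cells, Sox17 being known for its role in arteries. Sox17 had 8.88, 10.2 and 12.2 CPM (lowest, median, highest) in the WT group and 9.36, 8.82, 8.91, 8.88 and 6.21 CPM in cKO 8, 9, 12, 13 and 14. All cKO libraries were below the WT median, with cKO 14 lowest. The limma log2 fold change of Sox17 was -0.26 (SE 0.09, adjusted p = 0.0768), and Sox17 passed in DESeq2 on recovered reads (-0.29, adjusted p = 0.0415) and in limma with arrayWeights (-0.33, adjusted p = 0.0073). DESeq2 called 17.9% of all tested genes. Without strand information, reads from the gene Gm37587, which lies on the opposite strand over 16.8% of the Sox17 exon bases, cannot be told apart from it.

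Sox18 went the other way. It had 4.54, 5.79 and 7.70 CPM (lowest, median, highest) in the WT group, and 8.52, 9.61, 8.72, 7.41 and 5.56 CPM in cKO 8, 9, 12, 13 and 14. In 3 of the 5 cKO libraries it was above every WT library, while cKO 14 was below the WT median. The limma log2 fold change of Sox18 was 0.34 (SE 0.13, adjusted p = 0.0892), and Sox18 passed without cKO 14 at 0.45 (limma adjusted p = 0.0336) and with arrayWeights at 0.44 (0.0104). Both SOX genes were lowest among the cKO libraries in cKO 14. Erg and Fli1, ETS factors that maintain endothelial identity, were at 5.74 ± 0.829 and 4.00 ± 0.198 CPM in the WT group and at 5.99 ± 0.963 and 3.76 ± 0.502 CPM in the cKO group, and the groups overlapped for both.

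Among the 7 genes of receptors and their partners, none passed, and 6 of 7 had a log2 fold change above 0. Without cKO 13 it was 4 of 7, Ramp2 (-0.024) and Ptprb (-0.0075) having turned. Flt1 and Kdr are receptors of vascular endothelial growth factor. Flt1 had 74.3, 86.1 and 98.8 CPM (lowest, median, highest) in the WT group and 94.6, 92.8, 100.7, 93.3 and 92.2 CPM in cKO 8, 9, 12, 13 and 14. All 5 cKO libraries were above the WT median, but WT 4 and WT 5 lay among them (limma log2 fold change 0.12, adjusted p = 0.170, and 0.0454 with arrayWeights). Kdr was at 17.6 ± 3.34 and 19.1 ± 1.98 CPM (0.13, limma adjusted p = 0.478). Eng, a TGF-beta co-receptor, was at 22.6 ± 3.41 and 25.5 ± 1.73 CPM (0.18, limma adjusted p = 0.181), and passed without WT 4, its highest library (limma adjusted p = 0.0403), and with arrayWeights (0.0128).

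The angiopoietin receptor Tek and its partner Tie1 had opposite signs. Tek was at 17.9 ± 1.88 CPM in the WT group and 18.9 ± 1.81 in the cKO group (limma log2 fold change 0.07, adjusted p = 0.560). Tie1 was at 15.8 ± 1.94 and 13.6 ± 2.01 CPM (limma log2 fold change -0.21, 95% interval -0.42 to 0.00, adjusted p = 0.168). The phosphatase Ptprb, which acts on Tek, was at 55.1 ± 3.84 and 55.9 ± 6.04 CPM. Ramp2, the adrenomedullin receptor partner, was at 8.97 ± 1.503 and 9.30 ± 1.47 CPM, and 33.4% of its exon bases are shared with Vps25 on the same strand.

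None of the 5 junction genes passed, nor was any at an unadjusted p under 0.05 in limma. Cldn5, the claudin of the barrier's tight junctions, had 36.3, 41.5 and 50.9 CPM (lowest, median, highest) in the WT group and 51.2, 48.1, 54.5, 47.0 and 40.1 CPM in cKO 8, 9, 12, 13 and 14. Only cKO 14 was below the WT median, and the ranges overlapped widely (limma log2 fold change 0.16, 95% interval -0.03 to 0.36, adjusted p = 0.237). Ocln, the tight junction protein occludin, was at 11.7 ± 1.22 and 12.6 ± 1.39 CPM. Pecam1 and Cdh5, adhesion proteins at endothelial contacts, were at 21.6 ± 1.96 and 15.5 ± 1.81 CPM in the WT group and 23.3 ± 2.93 and 16.7 ± 1.71 in the cKO group. Esam, another adhesion molecule, was the junction gene with a value below 0 (13.8 ± 2.06 and 13.1 ± 1.86 CPM, limma log2 fold change -0.06, adjusted p = 0.719).

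None of the 6 surface and secreted proteins passed, and their log2 fold changes ran from 0.06 (Emcn) to 0.26 (Ly6a). Without cKO 13, Emcn (-0.020), Ly6c1 (-0.0033) and Itm2a (-0.022) were below 0, and with arrayWeights Vwf (-0.028) and Itm2a (-0.012) were. Ly6a, a GPI-anchored surface protein of brain endothelium, had 11.3, 13.1 and 15.3 CPM (lowest, median, highest) in the WT group and 15.02, 14.4, 18.7, 20.3 and 12.5 CPM in cKO 8, 9, 12, 13 and 14. The values of cKO 12 and cKO 13 were above every WT library, and the other 3 lay within the WT range (limma log2 fold change 0.26, adjusted p = 0.137). Ly6c1 was at 19.3 ± 2.88 and 20.8 ± 4.21 CPM, and its near copy Ly6c2 had at most 4 reads in any library. Egfl7, a secreted endothelial factor, was at 23.997 ± 2.33 and 27.1 ± 3.50 CPM (0.17, limma adjusted p = 0.198). Vwf, the clotting factor stored in endothelium, was at 18.6 ± 1.51 and 20.3 ± 3.85 CPM. Itm2a, a membrane protein rich in brain endothelium, was at 43.6 ± 2.27 and 46.2 ± 8.17 CPM, and the sialomucin Emcn at 5.02 ± 0.377 and 5.36 ± 1.07 CPM.

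None of the mural genes passed over all 12 mice in limma with equal library weights or in edgeR, and Notch3 was the one at an unadjusted limma p under 0.05. Pdgfrb, the receptor through which endothelial PDGF-B recruits mural cells, had 24.4, 28.4 and 32.2 CPM (lowest, median, highest) in the WT group and 28.1, 27.1, 30.6, 31.1 and 28.3 CPM in cKO 8, 9, 12, 13 and 14. All cKO values lay inside the WT range (limma log2 fold change 0.03, 95% interval -0.11 to 0.18, adjusted p = 0.779). Rgs5, a regulator of G protein signalling in pericytes, had 91.3, 101.5 and 118 CPM (lowest, median, highest) in the WT group and 95.7, 106, 119.7, 144 and 117 CPM in cKO 8, 9, 12, 13 and 14. The highest was again cKO 13, and the limma log2 fold change was 0.17 (adjusted p = 0.218), or 0.090 without cKO 13. Abcc9, a potassium channel subunit of pericytes, was at 14.3 ± 1.68 and 14.1 ± 0.848 CPM (limma log2 fold change -0.01, adjusted p = 0.925). Vtn, the matrix protein vitronectin, was at 67.6 ± 7.44 and 70.0 ± 5.52 CPM (limma log2 fold change 0.05, adjusted p = 0.672).

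Notch3, the Notch receptor of smooth muscle and pericytes, came nearest to the threshold among mural genes. Its lowest, median and highest values in the WT group were 38.0, 40.5 and 42.9 CPM, and it had 30.6, 35.6, 39.0, 32.5 and 40.2 CPM in cKO 8, 9, 12, 13 and 14. In cKO 8, 9 and 13 it was below every WT library, and in cKO 12 and 14 it lay within the WT range. The limma log2 fold change of Notch3 was -0.18 (SE 0.06, adjusted p = 0.0782). It passed without cKO 14, at -0.22 (limma adjusted p = 0.0419), in limma with arrayWeights (adjusted p = 0.0125) and in DESeq2 on recovered reads (adjusted p = 0.0410).

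Contractile genes of smooth muscle varied the most between mice of one group. Acta2, smooth muscle actin, had 10.3, 13.3 and 17.5 CPM (lowest, median, highest) in the WT group and 8.98, 12.9, 17.1, 14.1 and 11.5 CPM in cKO 8, 9, 12, 13 and 14. Myh11, the smooth muscle myosin heavy chain, had 11.1, 16.6 and 22.6 CPM in the WT group and 7.13, 15.4, 23.5, 19.7 and 16.2 CPM in the same order. For both genes cKO 8 was the lowest of all 12 libraries, and WT 5 and cKO 12 held the highest values. The within-group SD of log2(CPM + 1) was 0.45 for Myh11 and 0.27 for Acta2, against 0.0844 for Slc2a1, the steadiest member. Neither gene differed by the test (limma log2 fold change -0.11, adjusted p = 0.653 for Acta2; -0.14, 95% interval -0.63 to 0.35, adjusted p = 0.722 for Myh11). Without cKO 8 the sign of both turned, to 0.0068 and 0.11.

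Acta2 and Myh11 moved together from mouse to mouse. Over the 12 mice Pearson's r of log2(CPM + 1) was 0.936 (permutation test, two-sided, p = 1e-05, the smallest these permutations can give, adjusted 3e-05 over 3 pairs) and Spearman's rho was 0.930 (p = 5e-05, adjusted 0.00015). Without WT 5 and cKO 8, the mice farthest from the median of Acta2, r was 0.923 (permutation p = 0.00013). Within the 7 WT mice r was 0.964 (exact permutation p = 0.000595). Both genes mark the same cells and come from the same libraries. The tie was not particular to this pair. With group means removed, Acta2 had an r of 0.895 with the endothelial gene Pecam1, beside 0.935 with Myh11. The related actins Actb and Actg1 were at 610.3 to 772 and 178 to 207 CPM, and Actg2 had at most 6 reads in any library. Whether reads shared with other actins bear on Acta2 was not tested.

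**Figure D2:**
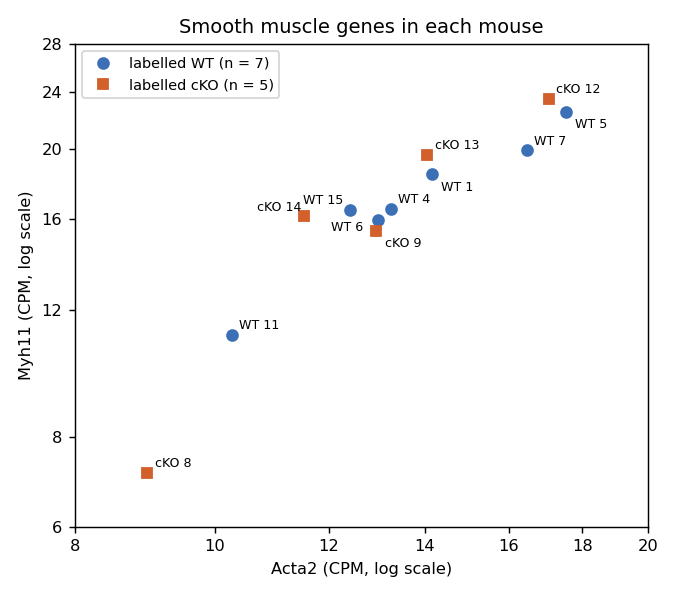
CPM of Acta2 (horizontal) against Myh11 (vertical) in each of the 12 mice, both on log scales, circles for libraries labelled WT and squares for cKO. The points lie along 1 line from cKO 8 (8.98 and 7.13 CPM) to cKO 12 and WT 5, with the groups mixed along it.

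Tagln, the actin-binding protein transgelin, could not be compared. It was at 0 to 0.186 CPM, with at most 4 reads in any library, 15 reads over the 7 WT libraries and 5 over the 5 cKO libraries, and it was listed at 0 in 5 libraries. In the GENCODE M21 annotation 67.9% of its exon bases are overlapped by exons of 2 other genes, mainly the antisense gene Gm48529 on the opposite strand (62.4%). It was the only member over 50%, and 27 members had no overlapping exon. Whether this overlap bears on the low count was not tested. Its r with Acta2 was 0.588 (rho 0.486; permutation p = 0.0453 and 0.112, adjusted 0.0552 and 0.112) and its r with Myh11 was 0.549 (rho 0.573; permutation p = 0.0552 and 0.0560, adjusted 0.0552 and 0.0840). Without the mice farthest from the median, r was 0.377 with Acta2 (without WT 5 and cKO 8, permutation p = 0.281) and 0.429 with Myh11 (without WT 11 and cKO 8, permutation p = 0.215). In the 7 WT mice alone it was 0.743 and 0.734 (exact permutation p = 0.0619 and 0.0369). With so few reads no relation of Tagln is read from these values.

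Endothelial and mural genes were compared by their medians. Over the 28 endothelial genes the median log2 fold change was 0.10 (from -0.26 for Sox17 to 0.34 for Sox18), with 22 above 0 and 6 below, where 52.5% of all tested genes were above 0. Without cKO 13 alone 16 were above 0 and 12 below, and without the 4 libraries low in Avp and Oxt, or with arrayWeights, 19 and 9. Over the 6 mural genes it was 0.01 (from -0.14 for Myh11 to 0.17 for Rgs5), with 3 above 0 and 3 below (5 and 1 without cKO 8), and with Notch3 added it was -0.01. The median over all tested genes was 0.01. No test of a difference between the endothelial and mural medians was made, and across all alternatives the endothelial median stayed between 0.04 and 0.12 and the mural median between -0.06 and 0.04. Other lists of vessel genes did not share the lean of the endothelial genes above 0. Of those given next, only the venous list had a median above 0. Of 22 further endothelial genes 8 were above 0 (median -0.04), as were 2 of 17 further carriers (median -0.09). The same held for 5 of 12 tight junction genes (-0.04) and 5 of 12 pericyte genes (-0.03). It held for 2 of 9 further smooth muscle genes (-0.07) and 2 of 6 arterial genes (-0.01). Of 4 venous genes 3 were above 0 (median 0.09).

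Per mouse, the 27 endothelial genes other than Bsg summed to 680 to 802 CPM (median 729.9) in the WT group and 718 to 848 CPM (median 760.5) in the cKO group. The 6 mural genes summed to 213 to 276 CPM (median 251) and 229.9 to 296 CPM (median 248). The ratio of the mural to the endothelial sum was 0.313 to 0.348 in the WT group and 0.308 to 0.349 in the cKO group, so the ranges of the ratio overlapped almost fully. WT 11 and WT 6 had the lowest sums of both kinds, and cKO 13, cKO 12 and WT 5 the highest. Of the 34 members other than Notch3 and Tagln, with Bsg counted, cKO 13 was the highest of all 12 libraries for 11. In cKO 14, 18 of them were the lowest of its group. Those 3 highest libraries are among the 4 low in Avp and Oxt and high in oligodendrocyte markers, and whether this bears on their vessel gene levels was not tested. The fourth, WT 4, had sums of 766 and 259 CPM.

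**Figure D3:**
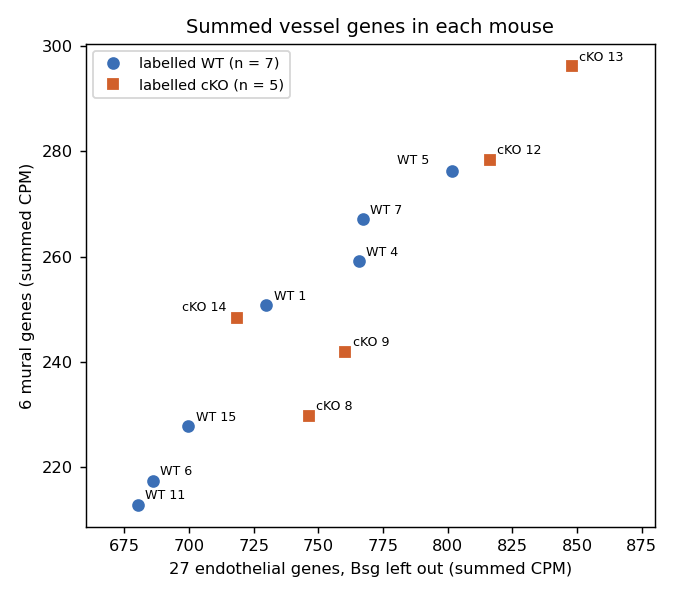
Summed CPM of the 27 endothelial genes (horizontal, Bsg left out) against summed CPM of the 6 mural genes (vertical) in each mouse, circles for libraries labelled WT and squares for cKO. The groups are mixed along the diagonal, with WT 11 lowest and cKO 13 highest on both axes.

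**Figure D4:**
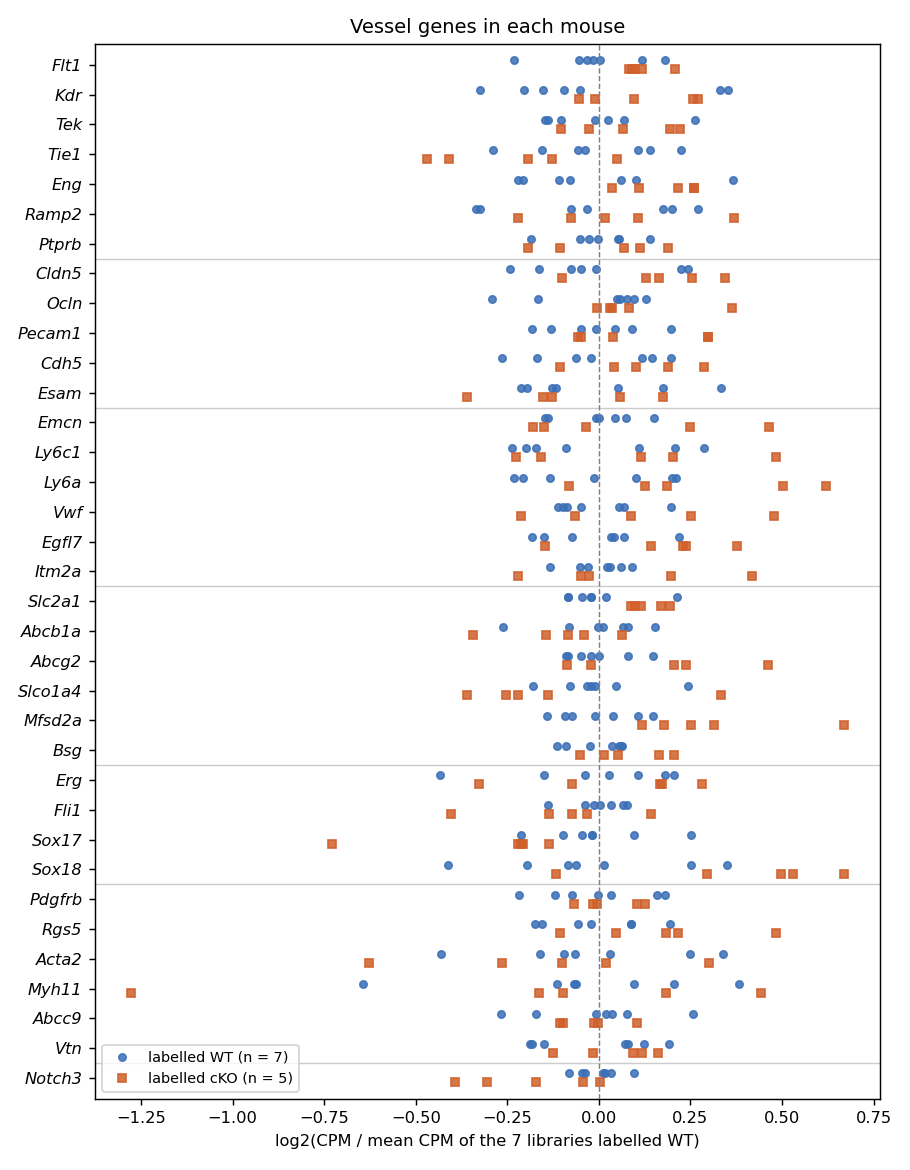
Log2 ratio of each tested member's CPM to its mean over the WT group, in every mouse, circles for libraries labelled WT (n = 7) and squares for cKO (n = 5), with lines between roles. For every member the 2 groups overlap, and Myh11 and Acta2 show the widest scatter within a group.

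With the group means removed, vessel genes tended to rise and fall together across mice. The median Pearson correlation was 0.36 over 378 pairs of endothelial genes, 0.55 over 15 pairs of mural genes, with every pair above 0, and 0.52 over 168 pairs of an endothelial and a mural gene. Pairs of a member with any other tested gene had a median of 0.02. These are descriptions over 12 mice in which all genes share the libraries and their depth. After Acta2 with Myh11, the pairs most alike were Ramp2 with Ly6a (0.91), Flt1 with Pdgfrb (0.90), Itm2a with Rgs5 (0.90) and Pecam1 with Acta2 (0.895). Of the 5 lowest pairs 4 held Ocln, down to -0.63 with Cdh5.

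The levels of the members spanned a wide range per length. Per kilobase of exon (union of GENCODE M21 exons), the WT means were 259 CPM for Bsg, 35.7 for Slc2a1, 33.3 for Vtn, 30.3 for Cldn5, 25.0 for Itm2a and 22.7 for Rgs5. Neighbours in this order, Slc2a1 with Vtn and Vtn with Cldn5, were apart by less than 1 SD (SD 2.68, 3.67 and 3.94). Ly6c1 and Ly6a followed at 11.5 and 10.96, and Mfsd2a and Slco1a4 at 8.67 and 8.59, again within their spread. The lowest of the tested members were Vwf (1.16), Fli1 (1.15) and Emcn (0.93). Acta2 was at 6.32 and Myh11 at 2.28, and Tagln at 0.0396.

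**Figure D5:**
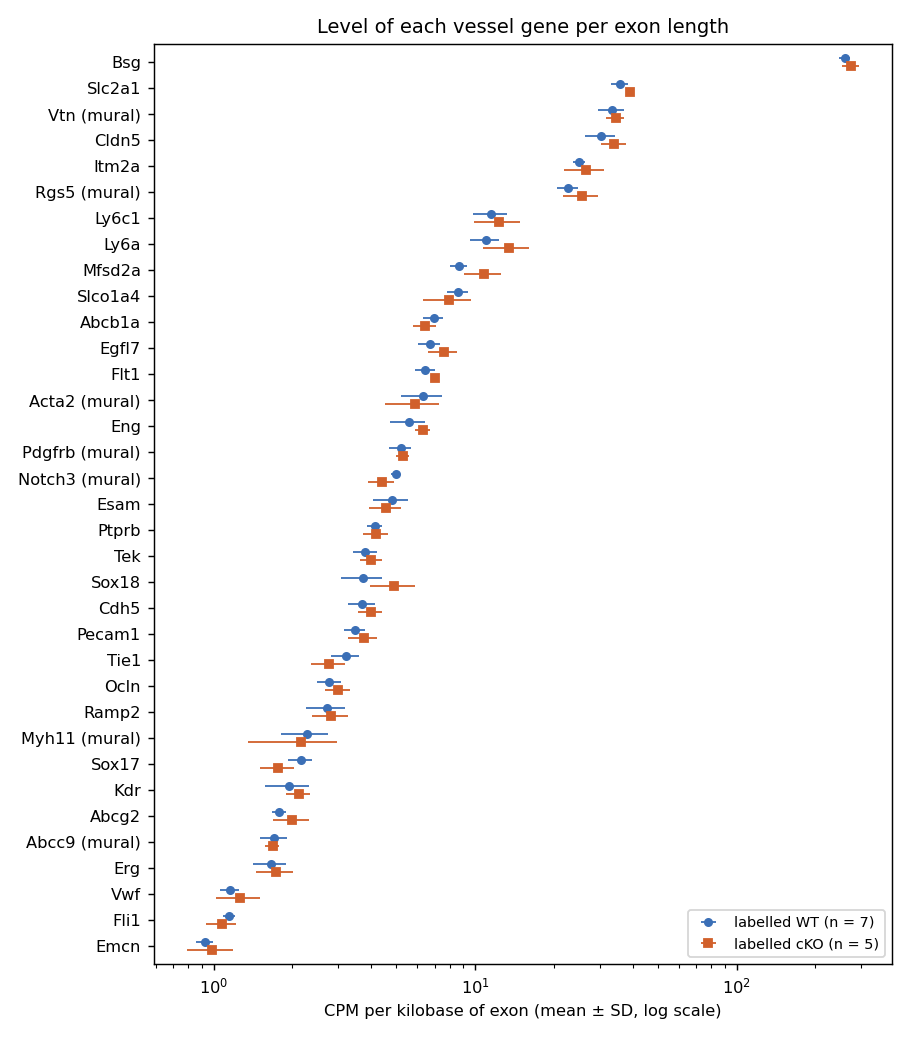
CPM per kilobase of exon (log axis) of the 35 tested members, ordered by level, as group means with bars of 1 SD, circles for libraries labelled WT (n = 7) and squares for cKO (n = 5). Bsg stands highest at 259 in the WT group and Emcn lowest at 0.93, and each gene's groups lie close together beside the spread between genes.

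Genes that signal to these cells gave calls in 5 lists, to be read beside the 14.1% of all tested genes called. Of 9 tested vascular growth factor and angiopoietin genes 1 passed: Vegfa, the main ligand of Flt1 and Kdr, fell from 86.3 ± 8.12 to 69.7 ± 5.72 CPM (limma log2 fold change -0.30, adjusted p = 0.0136). Of 10 Notch genes 1 passed, the ligand Jag1 (log2 fold change -0.34, limma adjusted p = 0.0467). Of 10 TGF-beta and BMP genes Tgfb2 fell (-0.33, limma adjusted p = 0.0103) and the receptor Bmpr2 rose (0.15, 0.0337). Of 5 PDGF genes Pdgfra rose (0.14, limma adjusted p = 0.0476), a receptor of oligodendrocyte precursors and fibroblasts, while Pdgfb, the endothelial ligand for Pdgfrb, was at 22.6 CPM in both groups. Of 12 genes of the Wnt pathway that induces the barrier, 1 passed, Reck (-0.28, limma adjusted p = 0.0452). Vegfa passed in every alternative, and Tgfb2 in all but the thalamus covariate (limma adjusted p = 0.0569). With that covariate Jag1 (-0.46, adjusted p = 0.0594), Bmpr2 (0.14, 0.161), Pdgfra (0.12, 0.214) and Reck (-0.25, 0.187) did not pass, and without the 4 libraries low in Avp and Oxt Bmpr2 (0.0693), Pdgfra (0.0509) and Reck (0.0628) did not. Single mice also ended these calls: Jag1 passed only without WT 6, cKO 12 or cKO 13, Bmpr2 only without WT 4, WT 5, WT 15 or cKO 8, Pdgfra only without WT 5, WT 15 or cKO 13, and Reck only without WT 5, WT 15, cKO 8 or cKO 12. The highest adjusted p with any other mouse left out was 0.0990, 0.0798, 0.1098 and 0.1098 for these 4 genes in limma.

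Other genes listed for the vessel wall are given beside the same background, and which cells their reads come from was not tested. Zic1 of the pericyte list ran from 44.2 CPM in cKO 12 to 323 CPM in WT 11. Those libraries had the lowest and highest sums of thalamus markers. None of 12 tight junction genes, 12 pericyte genes, 6 arterial genes or 4 venous genes tested passed in limma, with 1, 0, 1 and 1 at an unadjusted p under 0.05. Of 17 other carriers 2 passed, the amino acid carrier Slc7a5 and the receptor Lrp8, both lower (-0.18 and -0.17, limma adjusted p = 0.0366 and 0.0240), and of 22 other endothelial genes Klf4 fell (-0.41, 0.0263). With the thalamus covariate Slc7a5 and Klf4 did not pass (-0.14 and -0.39, limma adjusted p = 0.205 and 0.127). Slc7a5 passed only without WT 4, WT 5 or cKO 8 among single mice (limma adjusted p up to 0.0788 otherwise), Lrp8 was lost without WT 1, cKO 9, cKO 13 or cKO 14 (up to 0.0562), and Klf4 without cKO 8 or cKO 14 (up to 0.0597). In the basement membrane that endothelium and pericytes share, 5 of 10 genes fell and none rose, beside 7.6% of all tested genes called lower. Lama5, a laminin chain, fell from 26.7 ± 2.94 to 18.1 ± 1.47 CPM with no overlap (limma log2 fold change -0.53, adjusted p = 0.00294). Agrn fell from 316 ± 36.2 to 230.0 ± 14.9 CPM with no overlap (-0.45, limma adjusted p = 0.00409). The collagen IV chains Col4a1 and Col4a2 fell by 0.38 and 0.39 (limma adjusted p = 0.0107 and 0.0241), and Hspg2, perlecan, fell by 0.24 (0.0341). Neurons and astrocytes make some of these too, so they are not markers of vessel cells.

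Among 9 tested smooth muscle genes outside the member list 2 passed, both lower, where 7.6% of all tested genes were called lower. Smtn, smoothelin, fell from 11.3 ± 2.42 to 6.34 ± 0.896 CPM with no overlap (limma log2 fold change -0.73, SE 0.13, adjusted p = 0.00478), while Acta2 and Myh11 did not differ by the test. In cKO 8, the library lowest in Acta2 and Myh11, Smtn was lowest too (5.16 CPM). It was at 12.6 CPM in WT 11, the WT library lowest in both, and at 6.39 CPM in cKO 12, the library highest in Myh11. Whether the Smtn reads come from smooth muscle cells was not tested. Mylk, myosin light chain kinase, fell by 0.25 (limma adjusted p = 0.0315). With thalamus markers as a covariate neither passed (Smtn -0.51, limma adjusted p = 0.0515; Mylk -0.19, 0.225), and Hspg2 did not (-0.24, 0.124, the same size as without it), whereas the other 4 basement membrane genes did. Without WT 1 or without cKO 9 the basement membrane count was 3, Col4a2 and Hspg2 being lost. Col4a2 was also lost without cKO 14 (limma adjusted p = 0.0602), and Hspg2 also without WT 4 (0.0614), WT 7 (0.0615), WT 11 (0.0581), cKO 8 (0.0663) or cKO 13 (0.0784). Mylk was lost without WT 1, WT 4, WT 7, WT 11, cKO 8, cKO 9 or cKO 14 (limma adjusted p up to 0.0702) and without the 4 libraries low in Avp and Oxt (-0.25, 0.0759), which left Smtn as the 1 call of its list.

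Markers of cells that sit beside vessels did not pass. In limma none of 8 perivascular fibroblast genes, 2 perivascular macrophage genes, 5 blood genes, 6 astrocyte genes or 6 microglia genes tested was called, with 0, 0, 0, 0 and 2 at an unadjusted p under 0.05. Fibroblast genes summed to 60.7 to 101 CPM in the WT group, highest in WT 1, and 56.5 to 86.0 CPM in the cKO group. The blood genes, mostly globins, summed to 23.4 to 41.9 and 24.1 to 49.996 CPM, with the highest sum in cKO 13. Astrocytes, whose endfeet cover vessels, gave sums of 1375 to 1609 and 1501 to 1604 CPM.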

How the data were processed

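Libraries were made from poly(A) RNA of 12 hypothalami, per the labels' protocols. Per the submitters' processing notes, bcl2fastq, FastQC 0.11.9, STAR 2.7.9a, SAMtools and featureCounts (Subread) were used; genome build, annotation and strand setting are not given in the sources used here. The authors deposited normalized CPM for 32494 genes and 12 libraries. Their deposited test table gives, for each gene, a log2 fold change, its p-value and the false discovery rate. Every column was matched to a sample by name, and 0 were unused.

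In each library 100% of the deposited CPM values were whole multiples of 1 step (within 0.001), so whole reads were recovered. The level of 3 reads was 0.0436 to 0.178 CPM and covers counting error only. Over 31 pairs within groups chi-square per degree of freedom was 3.04 to 26.3 (genes with at least 20 reads), so no library was counted as a copy. Values of log2(CPM + 1), a scale that understates changes of low genes, were fitted in limma 3.58.1 under R 4.3.3 (trended eBayes, no covariate) for genes whose mean reached 1 CPM. The fit was tested on simulated data. Tagln was under the minimum. On recovered reads edgeR 4.0.16 called 2098 genes and DESeq2 1.42.0 called 2747. All 36 members are named; other genes only where their list had at most 5 calls or where they share sequence with a member or decide how it is read. The members, gene lists and tests were chosen with earlier results of these data known. Alternatives were another pseudocount, centring, quantile normalization, other minimums, arrayWeights, a thalamus covariate and leaving out each mouse. Exon lengths and overlaps came from GENCODE M21 (GRCm38), matched by symbol for all 36.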

Additional observations from a re-analysis of the deposited data

Results flagged for a closer look

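In 70 sets of values (35 members in each group), 5 held a library far from the others of its group, where chance gives about 1 in 20, or 3.5. Flt1 was at 100.665 CPM in cKO 12, with the next cKO library at 94.6. Ocln was at 15.0633 CPM in cKO 8, with the next at 12.4. Slc2a1 was at 145.416 CPM in WT 7, with the next WT library at 127. Slco1a4 was at 69.3675 CPM in cKO 13, with the next at 50.1. Sox17 was at 6.21437 CPM in cKO 14, with the next lowest at 8.82. They fell in 5 different libraries.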

How the results depend on the processing

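The number of members past the threshold was 1 with a pseudocount of 0.1, median centring, quantile normalization, a minimum of 5 CPM and edgeR. It was 0 with no CPM minimum (limma adjusted p of Mfsd2a = 0.0599), with 6 members at an unadjusted p under 0.05, and 0 with the thalamus covariate (770 genes called in all, 4 members at an unadjusted p under 0.05). It was 3 with DESeq2 (Mfsd2a, Sox17, Notch3), which called 17.9% of all tested genes. With arrayWeights it was 7 (Flt1, Eng, Slc2a1, Mfsd2a, Sox17, Sox18 and Notch3), beside 5126 genes called in all, or 33.4% of those tested. Leaving out each mouse gave 0 to 3 members and 1158 (without WT 1) to 2302 genes. Without the 4 libraries low in Avp and Oxt, chosen after seeing the data, 2 members passed (Mfsd2a and Slco1a4) and 1580 genes. Mfsd2a stayed above 0 in every alternative, from 0.21 to 0.34. Median centring put 56.6% of all called genes higher, against 46.2% as deposited. The cause of these changes was not tested.

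With no CPM minimum Jag1, Bmpr2, Pdgfra, Reck, Slc7a5, Klf4, Hspg2 and Mylk did not pass (limma adjusted p = 0.0564 to 0.0883). Slc7a5 was lost with median centring, Jag1 and Reck with quantile normalization, and Pdgfra in edgeR (0.0550, 0.0588, 0.0535 and 0.0603). Of 1165 alternative values of single genes and lists, 1016 kept direction and side of the threshold, and 24 turned sign, of members that passed in no alternative. With arrayWeights these were Ptprb (-0.059), Vwf (-0.028), Itm2a (-0.012) and Vtn (-0.060), with the thalamus covariate Ptprb (-0.021), and without the 4 libraries Ptprb (-0.033), Emcn (-0.090) and Itm2a (-0.072). Leaving out single mice gave ranges that crossed 0 for Abcc9 (-0.054 to 0.028), Acta2 (-0.21 to 0.0068), Emcn (-0.020 to 0.12), Erg (-0.0087 to 0.13), Esam (-0.12 to 0.00094), Itm2a (-0.022 to 0.13), Ly6c1 (-0.0033 to 0.17), Myh11 (-0.28 to 0.11), Pdgfrb (-0.00085 to 0.063), Ptprb (-0.026 to 0.068) and Ramp2 (-0.024 to 0.11). The correlation of Acta2 with Tagln was 0.377 without the 2 farthest mice and 0.743 in the 7 WT mice, and that of Myh11 with Tagln was 0.734 in the WT mice (exact permutation p = 0.0369). No paired analysis was possible because the 2 groups share none of the mouse numbers in the titles.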
